A study of Oryza sativa Japonica Group with 36 samples.

Results

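The first response of the cold-tolerant rice line K354 was read from 6 of the 36 arrays in the series, the 3 arrays of shoots kept at 4 °C for 2 h and the 3 arrays of the K354 control at 25 °C, chosen by their labels. K354 is a BC2F6 introgression line that carries segments of the indica variety Bg300 in the background of its recurrent parent C418, a japonica line. Whole shoots of seedlings at the 3-leaf stage were collected, and each of the 3 biological replicates of a group came from a separate pot. Both K354 groups share this genotype, tissue, age and growth regime, and they differ in the temperature of the chamber and in the time of sampling. The study pooled its control from shoots taken at 2 h and at 24 h, so that the time of day of the cold shoots is matched by only part of the control, and temperature and time of day cannot be told apart for genes that follow the clock. K354 is also a single introgression line. The 3 arrays of C418 at 4 °C for 2 h, the 3 arrays of the C418 control at 25 °C and the K354 arrays at 6, 12, 24 and 48 h of cold served for comparison.

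Rice is a plant of warm climates, and its seedlings are injured by temperatures that temperate cereals survive. Chilling opens calcium channels and stiffens membranes, and within hours the cell makes transcription factors of the AP2/ERF, MYB and NAC families. Among them the DREB1 factors, also called CBF, bind the DRE/CRT element in the promoters of genes for dehydrins, sugar enzymes and other protective proteins. Heat shock factors and small heat shock proteins answer to the opposite stress, and the circadian clock sets when in the day a plant responds.

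The values are intensities of probe sets on an Affymetrix rice genome array, on a linear scale and in arbitrary units. They were compared as log2 values in limma, and p-values were adjusted by the Benjamini-Hochberg method over the 57258 probe sets tested. Array medians ran from 57.1 to 58.3 at 2 h of cold and from 63.1 to 64.6 in the control. The median log2 change over all probe sets was -0.12, a shift that is part of every value below unless another scaling is named. Correlations of log2 intensity were 0.992 to 0.995 among the 2 h arrays and 0.980 to 0.984 between a 2 h array and a control array. The green tissue markers, such as genes of the Rubisco small subunit and of chlorophyll binding proteins, had a summed intensity of 63428 to 64255 at 2 h and 66817 to 67021 in the control, and 0 of 7 passed the test. The 5 root markers did not follow the groups. Their sum was 8528, 5496 and 1579 in 2 h replicates 1, 2 and 3, against 778, 744 and 4978 in control replicates 1, 2 and 3, so that 2 h replicates 1 and 2 and control replicate 3 stood apart from the rest. The 7 seed storage markers summed to 1958 to 2113 at 2 h and 2008 to 2099 in the control, and the 5 markers of dividing cells to 279 to 325 at 2 h and 385 to 431 in the control. Of the seed storage markers 1 was higher and 2 were lower. Of the markers of dividing cells 0 passed the test, and their median log2 change was -0.13. Fewer cells of a type and less RNA per cell cannot be told apart in whole shoots.

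After 2 h of cold few genes had changed by much. At an adjusted p of 0.05 and a change over 5-fold, 41 probe sets (0.0716% of those tested) were induced and 45 (0.0786%) were repressed in K354 at 2 h against its control. Of the 41 induced probe sets 27 have a described product, and 13 of them belong to transcription factors, with 7 of AP2/ERF proteins and 4 of MYB proteins. Of the 45 repressed probe sets 25 have a described product and 3 belong to transcription factors. The share of transcription factors among all tested probe sets was not counted, so these counts have no background beside them. Without a limit on the fold, 3886 probe sets (6.79%) were higher and 11590 (20.2%) were lower. This excess of lower values moved with the scaling, with 6883 higher and 5983 lower after quantile normalization and 7597 higher and 5659 lower after centring each array on its median, while scaling to the hybridization controls gave 2411 higher and 11578 lower. The split of the 5-fold calls moved too, with 58 induced and 31 repressed after quantile normalization, 59 and 32 after median centring, and 36 and 52 after scaling to the hybridization controls. The 3 arrays at 2 h all lay above or all below the 3 control arrays in 41 of 41 induced and in 44 of 45 repressed probe sets, against 14.1% of all tested probe sets above and 37.5% below. These probe sets were chosen by their change in the same arrays, so the separation was largely given by that choice and is no further support. Within the 41 induced probe sets, 2 h replicate 1 was the lowest of its group in 33, against 29.9% of all probe sets, and control replicate 1 was the lowest of its group in 33, against 34.4% of all. The number of induced probe sets was 57 without control replicate 3, 52 without 2 h replicate 1 and between 36 and 44 without each of the other arrays.

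**Figure D1:**
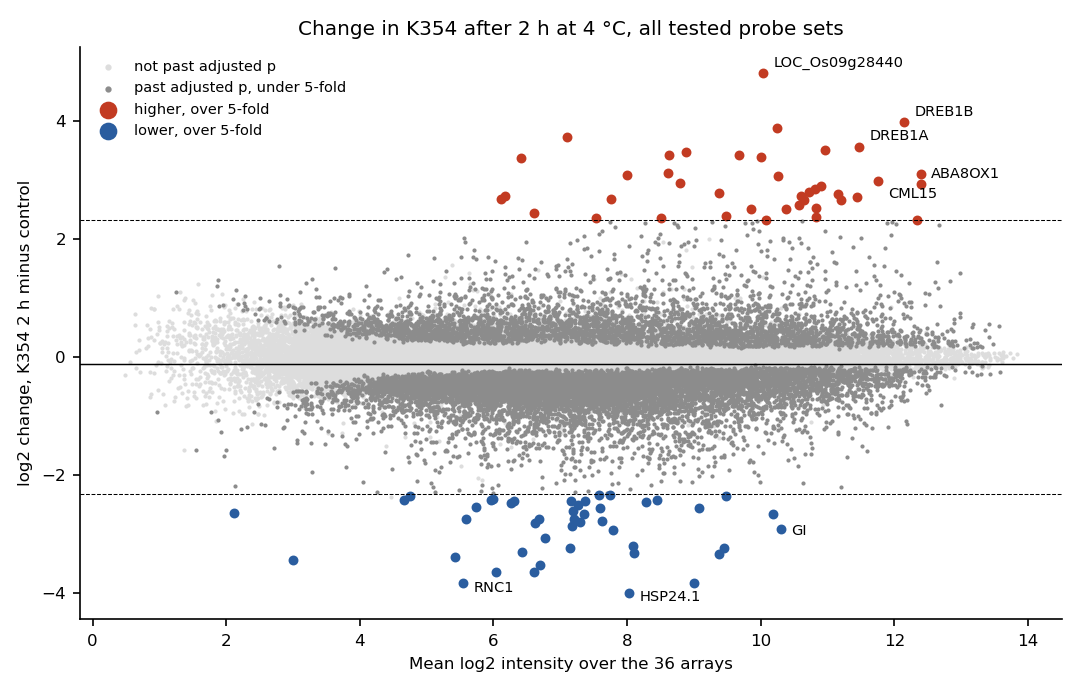
Log2 change in K354 at 2 h of cold minus control against the mean log2 intensity over the 36 arrays, with 1 point per tested probe set. Dashed lines mark 5-fold and the solid line marks the median change of -0.12; the 41 induced probe sets (red) and 45 repressed ones (blue) lie beyond the dashed lines.

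The described gene with the largest rise was an AP2/ERF factor, and 3 more of this family were among the 12 largest. LOC_Os09g28440, an AP2 domain protein, had intensities of 572, 485 and 820 in the 3 arrays at 2 h, against 16.3, 21.5 and 28.8 in the 3 control arrays. The groups lay far apart, with a rise of 28.2-fold, a log2 change of 4.82 (SE 0.23, adjusted p = 7.33e-15 from limma). Control replicates 1 and 2 lay below the 25th percentile of their arrays (28.2 and 28.5) and replicate 3 was close to it (28.5), so this fold is not exact. DREB1B, a DREB1 factor of rice, had 5117, 6206 and 6567 at 2 h and 241, 387 and 564 in the control. Its log2 change was 3.99 (SE 0.21, adjusted p = 3.52e-14), and replicate 1 was the lowest array within each group. DREB1A, which lies in the same gene cluster in rice, had 2998, 4412 and 4888 at 2 h against 249, 370 and 417 in the control, a log2 change of 3.57 (SE 0.18, adjusted p = 2.77e-14). LOC_Os08g36920, another AP2 domain protein, had 456, 717 and 1097 at 2 h and 37.0, 76.2 and 85.8 in the control, a log2 change of 3.51 (SE 0.34).

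Of the 5 genes measured as DREB1 factors, 4 rose and 0 fell, against 9.07% of the 17905 genes with a probe set that were higher and 26.4% that were lower. The median log2 change of the list was 2.09, against -0.12 over all genes, and the count was the same under each of 3 other scalings and without each of the 6 arrays. Beside DREB1A and DREB1B, DREB1E rose by a log2 change of 2.09 (SE 0.32), with 188, 275 and 390 at 2 h against 45.4, 67.5 and 84.6 in the control. DREB1G had 510, 856 and 1273 at 2 h and 266, 380 and 452 in the control, a log2 change of 1.20 (SE 0.27, adjusted p = 0.00127 from limma). The arrays of the 2 groups do not overlap for either gene, though for DREB1G the lowest 2 h array (510) was close to the highest control array (452). The member that did not pass was DREB1C, whose brightest probe set had 62.1, 48.8 and 52.3 at 2 h against 60.2, 77.6 and 66.5 in the control (log2 change -0.32, adjusted p = 0.329). A different probe set, described as DREB1C with the locus LOC_Os06g03670, had 157, 353 and 473 at 2 h against 38.5, 50.4 and 72.8 in the control, a log2 change of 2.51 (SE 0.29). It was named after its values were seen, and 2 further probe sets of DREB1C had log2 changes of 0.60 (adjusted p = 0.00759) and 0.27 (adjusted p = 0.327), so the probe sets given to this gene disagree. A list of 8 other AP2/ERF genes, matched by symbol, moved little, with 2 higher, 1 lower and a median log2 change of 0.01. It does not hold the AP2 factors LOC_Os09g28440 and LOC_Os08g36920, which rose, or LOC_Os09g11480, which fell, so it does not stand for the family.

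In the lists of other transcription factors single members stood out. These lists were matched by symbol and do not hold whole families. Over all genes 9.07% were higher and 26.4% lower. NAC067, a NAC factor, had 2497, 2773 and 3052 at 2 h against 467, 603 and 662 in the control, a log2 change of 2.27 (SE 0.12, adjusted p = 6.12e-14 from limma). It was by far the largest change among 8 NAC genes, of which 2 were higher and 0 lower. MYB2, a MYB factor linked with stress tolerance in rice, had 437, 503 and 652 at 2 h against 73.8, 89.0 and 117 in the control, a log2 change of 2.51 (SE 0.18). MYB4, a rice MYB factor known from cold tolerance in transgenic plants, had 809, 941 and 1312 at 2 h against 291, 364 and 541 in the control, a log2 change of 1.38 (SE 0.17). The second probe set of MYB4 gave 0.40 (adjusted p = 0.0804). Of 11 MYB genes 3 were higher and 1 was lower, with a median log2 change of 0.00. WRKY71, a WRKY repressor of gibberellin signalling in rice, rose by a log2 change of 0.87 (SE 0.10), with 3990, 4505 and 4648 at 2 h against 2082, 2331 and 2825 in the control, with 1.51 in a dimmer probe set, and was the largest change of 6 WRKY genes, of which 1 was higher and 1 lower. ISAP1 and SAP17, zinc finger proteins of the stress-associated family, had log2 changes of 0.73 (SE 0.14) and 0.97 (SE 0.28), the call of SAP17 being lost without control replicate 1 (adjusted p = 0.0864 from limma), in a list of 13 genes with 5 higher and 3 lower.

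The remaining induced genes with a described product included wound, light and growth related loci. LOC_Os03g19070, described as a long cell-linked locus protein, had 468, 706 and 999 at 2 h against 34.1, 48.9 and 60.7 in the control, a log2 change of 3.89 (SE 0.20). LOC_Os04g54240 and LOC_Os04g54230, a pair of loci described as wound induced proteins that stand next to each other by locus number, had log2 changes of 3.48 (SE 0.24) and 3.40 (SE 0.22). For LOC_Os04g54230 the arrays read 1168, 1412 and 1940 at 2 h and 118, 142 and 161 in the control. LOC_Os03g22270, an auxin-repressed protein, had the smallest error of the 12 described rises of largest size, with 279, 368 and 406 at 2 h against 29.4, 34.3 and 33.6 in the control (log2 change 3.42, SE 0.13). LOC_Os07g39680, described as a UV-induced protein, rose by a log2 change of 3.09 (SE 0.25). LOC_Os02g35080, a putative T-complex protein, read 332, 275 and 310 at 2 h and 35.2, 34.4 and 35.8 in the control (log2 change 3.12, SE 0.20), whereas a brighter probe set of the same gene had a log2 change of -0.18 (adjusted p = 0.528), so the probe sets of this gene disagree. In 7 of the 41 induced probe sets the control lay below the 25th percentile of its array in all 3 replicates, so their folds are not exact.

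**Figure D2:**
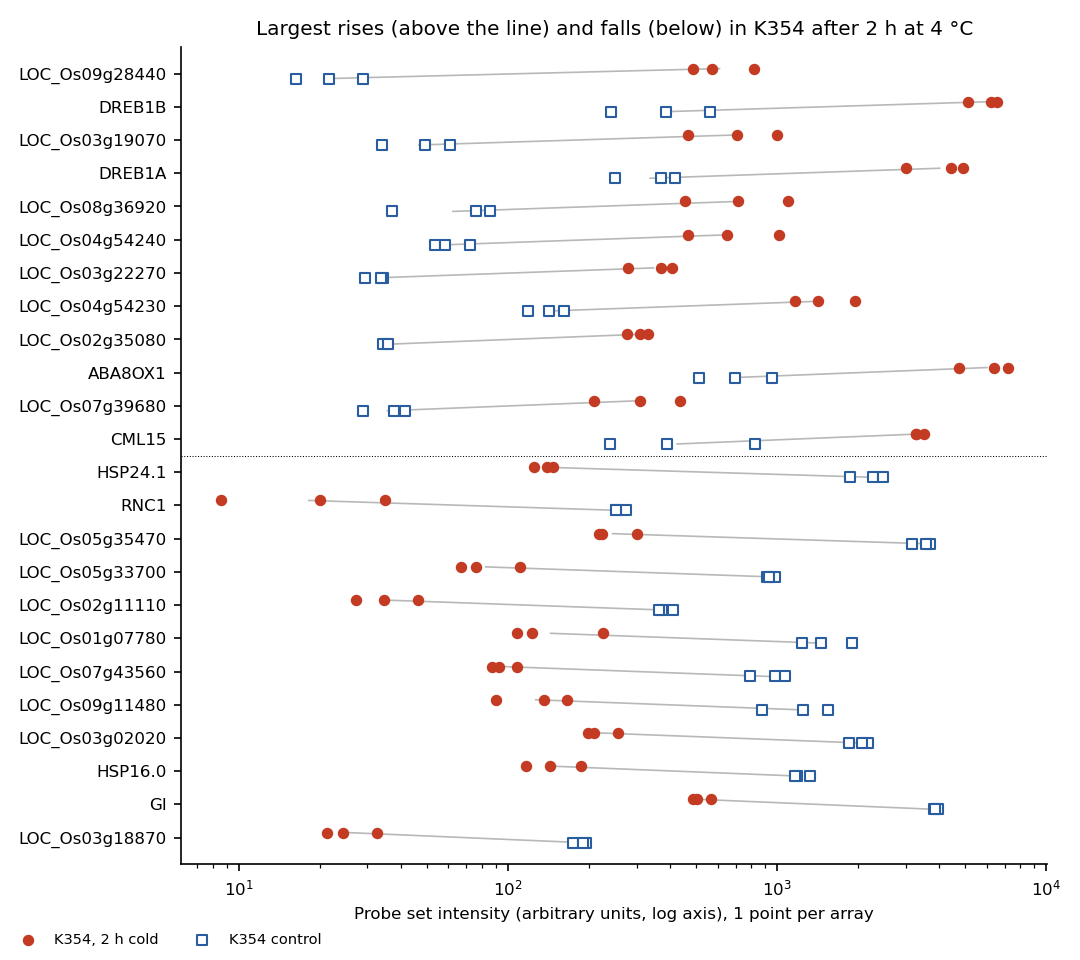
Intensity in each array (log axis, arbitrary units) for the 12 described genes with the largest rise and the 12 with the largest fall in K354 at 2 h of cold. Filled red circles are the 3 arrays at 2 h, open blue squares the 3 control arrays, and a grey line joins the group means of log values. The 2 groups do not overlap in any of the 24 genes, which were chosen by their change in these arrays. Levels of different probe sets are not comparable.

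Part of the calcium sensors rose at 2 h. CML15, a calmodulin-like protein, had 3268, 3288 and 3512 at 2 h against 239, 388 and 827 in the control, a log2 change of 2.98 (SE 0.29, adjusted p = 7.73e-09 from limma). The 2 h arrays were alike, and the spread lay in the control, with replicate 3 the highest. CML31 had the same order of control arrays, with 3244, 3129 and 3985 at 2 h against 447, 653 and 1267 in the control (log2 change 2.26, SE 0.25). CML27 and CML16 rose by log2 changes of 2.07 (SE 0.12) and 1.61 (SE 0.15), though a second, dimmer probe set of CML27 had 0.17 (adjusted p = 0.154). Of 26 calmodulin and calmodulin-like genes 8 were higher (30.8%, against 9.07% of all genes) and 3 lower, and the median of the list was -0.04, so these rises are those of some members. That median was 0.12 after median centring and 0.10 after quantile normalization, where 9 and 8 members were higher. CML18, the brightest that did not pass, had 2593, 2511 and 2624 at 2 h against 2842, 2530 and 3114 in the control. The calcium-dependent protein kinases, which carry a calcium sensor and a kinase in 1 protein, had 0 of 20 higher and 6 lower (30%, near the 26.4% of all genes), with a median log2 change of -0.21. CPK1 had 941, 932 and 974 at 2 h against 1743, 1746 and 1675 in the control, a log2 change of -0.86 (SE 0.12), and CPK13, the brightest that did not pass, had 0.10 (SE 0.15), while its dimmer probe set rose by 0.82 (adjusted p = 0.0017 from limma).

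Genes of abscisic acid, the hormone of water deficit, moved in part. ABA8OX1, a cytochrome P450 that breaks the hormone down, had 4732, 6369 and 7200 at 2 h against 511, 694 and 959 in the control, a log2 change of 3.11 (SE 0.16, adjusted p = 2.58e-14 from limma). ZEP, the zeaxanthin epoxidase that acts early in its synthesis, fell by a log2 change of 1.55 (SE 0.14), with 392, 429 and 498 at 2 h against 1412, 1282 and 1169 in the control. ABA8OX2, a relative of ABA8OX1, had 722, 646 and 573 at 2 h and 808, 719 and 863 in the control, with overlapping groups and no call (log2 change -0.30, adjusted p = 0.223). SAPK9, an SnRK2 kinase of the abscisic acid pathway, rose by a log2 change of 1.62 (SE 0.13), with 109, 99.5 and 89.2 at 2 h against 28.8, 34.4 and 33.3 in the control. Of the 11 SnRK2 kinases and receptors 4 were lower (36.4%, against 26.4% of all genes) and 1 higher, with a median log2 change of 0.10. This balance moved with the scaling, with 4 higher and 3 lower after quantile normalization and 4 and 2 after median centring. Among 56 protein phosphatases of type 2C, several of which restrain these kinases, 10 were higher (18%, against 9.07% of all genes) and 12 lower (21.4%, against 26.4%), with a median log2 change of -0.06. After median centring 16 were higher and 10 lower with a median of 0.10, and after quantile normalization 17 and 9 with a median of 0.08. PP2C32 had the largest rise of that list, with 1790, 2320 and 2335 at 2 h against 530, 587 and 643 in the control (log2 change 1.87, SE 0.13).

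The dehydrins and late embryogenesis proteins, textbook products of cold acclimation, were not called as a group at 2 h. Of 8 such genes 1 passed, Dhn1, with 2001, 1790 and 1735 at 2 h against 1418, 1332 and 1852 in the control, where the groups overlap (log2 change 0.28, SE 0.10, adjusted p = 0.0418 from limma). That call was lost after scaling to the hybridization controls (adjusted p = 0.153), with only the groups compared in the fit (adjusted p = 0.149) and without 4 of the 6 arrays in turn. In the list 2 members were higher after quantile normalization or median centring. Without 2 h replicate 3 there were 3 higher and a median of 0.81, against 0.28 with all arrays. Without control replicate 3 there were 2 higher, and 0 without any other array. RAB21, a dehydrin induced by abscisic acid, had 2287, 1574 and 203 at 2 h and 560, 720 and 1719 in the control, and EM, a seed protein of the same class, had 526, 278 and 59.9 at 2 h and 61.9, 58.2 and 288 in the control. Both were high in 2 h replicates 1 and 2 and in control replicate 3, the arrays in which the root markers were high. The root markers NAS1 and NAS2, nicotianamine synthases of iron uptake, read 4000, 2440 and 651 and 4105, 2587 and 564 at 2 h, against 205, 203 and 2340 and 214, 218 and 2199 in the control. The part of root tissue in these arrays, or of any other difference between pots, was not tested.

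The largest fall was that of a small heat shock protein, in a family made to keep proteins folded in the heat. HSP24.1, a mitochondrial small heat shock protein, had 139, 147 and 125 at 2 h against 2264, 1863 and 2473 in the control. The fall was 16-fold, a log2 change of -4.0 (SE 0.17, adjusted p = 3.55e-16 from limma), and the arrays within a group were close. HSP16.0, another small heat shock protein, had 186, 144 and 117 at 2 h against 1181, 1164 and 1327 in the control, a log2 change of -3.06 (SE 0.15). HSP17.4 and HSP17.9 fell by log2 changes of 1.83 (SE 0.18) and 1.33 (SE 0.19). Of 19 small heat shock proteins 8 were lower (42.1%, against 26.4% of all genes) and 0 higher, with a median log2 change of -0.38. After median centring 6 were lower and 2 higher, and the median was -0.23. HSP17.9B, the brightest member that did not pass, read 3263, 4012 and 4180 at 2 h and 4143, 3919 and 4536 in the control, with overlapping groups.

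Of 13 large chaperones 7 were lower (53.8%, against 26.4% of all genes) and 0 higher, with a median of -0.34. After median centring 5 were lower and 1 higher. BIP1, the HSP70 of the endoplasmic reticulum, had 1131, 1163 and 1144 at 2 h against 3614, 3802 and 3206 in the control, a log2 change of -1.62 (SE 0.15). CLPB-M, a ClpB protein that frees proteins from aggregates, had 88.2, 93.0 and 73.8 at 2 h against 267, 233 and 257 in the control, a log2 change of -1.57 (SE 0.16), and DJB6, a DnaJ protein, had -1.05 (SE 0.11). HSP81-3, an HSP90, differed little, with 9985, 10028 and 9920 at 2 h against 10335, 10540 and 10635 in the control (log2 change -0.07, adjusted p = 0.323). LOC_Os03g18870, described as a DnaJ protein, had 32.6, 24.3 and 21.2 at 2 h against 195, 174 and 189 in the control, a log2 change of -2.86 (SE 0.35).

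Among 20 heat stress transcription factors 10 were lower (50%, against 26.4% of all genes) and 3 higher, with a median log2 change of -0.23. The falls were led by class B members, which lack the activation motif of class A. HSFB2C had 235, 196 and 200 at 2 h against 1029, 1068 and 1057 in the control, a log2 change of -2.33 (SE 0.16, adjusted p = 1.29e-11 from limma). HSFB2A had 357, 274 and 268 at 2 h against 904, 940 and 1045 in the control, a log2 change of -1.69 (SE 0.17). All probe sets of both genes fell, with log2 changes between -1.69 and -2.33. Under quantile normalization and median centring 8 of the 20 factors were lower and 5 higher.

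Of 7 clock genes 4 fell (57.1%, against 26.4% of all genes) and 2 rose (28.6%, against 9.07%), with a median log2 change of -0.98. The counts were the same under each of 3 other scalings. GI, or GIGANTEA, an output gene of the plant clock that peaks late in the day, had 567, 503 and 485 at 2 h against 3953, 3833 and 3850 in the control. The log2 change was -2.91, with the smallest error of the 12 described falls of largest size (SE 0.09, adjusted p = 8.04e-19 from limma). PRR95, a pseudo-response regulator, had 729, 767 and 845 at 2 h against 2721, 2573 and 2309 in the control, a log2 change of -1.70 (SE 0.19). PRR37 and PRR73 fell by log2 changes of 1.28 (SE 0.12) and 0.98 (SE 0.09), with groups that do not overlap, and their other probe sets gave -1.82 and -1.59. CCA1, the morning MYB factor, had 9124, 9218 and 9366 at 2 h against 7679, 7416 and 7508 in the control, a small rise (log2 change 0.29, SE 0.06, adjusted p = 0.000745). PCL1, a MYB factor of the evening loop, had 51.7, 62.2 and 75.9 at 2 h against 41.5, 42.5 and 47.2 in the control (log2 change 0.52, adjusted p = 0.0358), and lost its call without 4 of the 6 arrays in turn (adjusted p up to 0.194). PRR1 did not pass (log2 change -0.23). The control is a pool of shoots from 2 times, and the part of the time of day in these values cannot be told apart from that of the cold.

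The other strong falls belong to enzymes, receptors and proteins of organelles. RNC1, known from maize as a splicing factor of chloroplast introns, had 35.0, 20.1 and 8.55 at 2 h against 252, 274 and 251 in the control, a log2 change of -3.83 (SE 0.36), and its other probe set gave -2.74. LOC_Os05g35470, a dienelactone hydrolase domain protein, had 302, 223 and 217 at 2 h against 3683, 3556 and 3170 in the control, a log2 change of -3.82 (SE 0.15). LOC_Os05g33700, of the 4F5 family, had 110, 76.0 and 67.1 at 2 h against 914, 981 and 936 in the control (log2 change -3.51, SE 0.22). In all 3 genes replicate 1 was the highest of the 2 h arrays. LOC_Os07g43560, a receptor-like kinase with DUF26 domains, fell by a log2 change of 3.30 (SE 0.28), and LOC_Os03g02020, a stress responsive A/B barrel protein, by 3.21 (SE 0.12). LOC_Os09g11480, an AP2 factor described as SUB1B, one of the submergence genes, had 90.2, 136 and 165 at 2 h against 1250, 1548 and 875 in the control, a log2 change of -3.24 (SE 0.28). It was the 1 AP2/ERF probe set among the 45 repressed, beside 7 among the 41 induced. PORB, a protochlorophyllide reductase of greening tissue, fell by 1.43 (SE 0.24), with 1757, 1377 and 1322 at 2 h against 3916, 4072 and 3905 in the control, and LOC_Os07g38960, described as a chlorophyll binding protein and named after its values were seen, by 2.47 (SE 0.21), with -0.50 (adjusted p = 0.0864) in a dimmer probe set. Of 15 genes of chlorophyll synthesis 1 was higher and 2 lower (13.3%, against 26.4% of all genes).

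Among further lists, ribosomal proteins had the highest share of lower members. Aquaporins, the water channels of the plasma membrane and the vacuole, had 8 of 23 lower (34.8%, against 26.4% of all genes) and 1 higher, with a median log2 change of -0.22. TIP1;2, a channel of the vacuolar membrane, had 222, 222 and 174 at 2 h against 1145, 935 and 954 in the control (log2 change -2.30, SE 0.29), and PIP2;7, of the plasma membrane, had 1550, 1151 and 944 at 2 h against 3553, 3614 and 3935 in the control (log2 change -1.64, SE 0.20). PIP1;2, the brightest aquaporin that did not pass, had -0.10 (SE 0.07). Antioxidant enzymes had 7 of 16 lower (43.8%) and 0 higher. CAT-A, a catalase, had 2917, 4014 and 4218 at 2 h against 8122, 8057 and 7833 in the control (log2 change -1.13, SE 0.11), CAT-B had -0.78 (SE 0.14), and APX2, an ascorbate peroxidase of the cytosol, had -0.61 (SE 0.07), while APX4 at 0.06 did not pass. Ribosomal proteins had 15 of 25 lower (60%) and 0 higher with a median of -0.42, and RPL11 fell the most by 1.03 (SE 0.18). The number of lower ribosomal genes was 7 after median centring and 12 after quantile normalization, and 0 were higher in either.

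Some JAZ genes rose, while 0 genes of the phytoalexin and chitinase lists were higher. A list of 17 JAZ proteins, repressors of jasmonate signalling that are made when the pathway is active, and other TIFY proteins had 4 members higher and 4 lower. The higher share was 23.5% (9.07% of all genes) and the lower share 23.5% (near the 26.4% of all genes). Of the 13 JAZ genes in the list 3 were higher and 2 lower. JAZ9 had 554, 484 and 738 at 2 h against 77.5, 78.5 and 235 in the control, a log2 change of 2.37 (SE 0.30, adjusted p = 7.74e-07 from limma), and JAZ13 and JAZ10 rose by 1.3 (SE 0.34) and 1.09 (SE 0.18). JAZ12 fell by 0.69 (SE 0.22, adjusted p = 0.0225), a call that was lost after quantile normalization (adjusted p = 0.0564) and median centring (adjusted p = 0.0844) and without 4 of the 6 arrays in turn. After either of those scalings 1 member of the list was lower, against 4 as deposited. JAZ1, the brightest that did not pass, read 5736, 5832 and 5806 at 2 h and 5883, 5940 and 5956 in the control. The genes of diterpenoid phytoalexins, antifungal compounds of rice, had 8 of 14 lower (57.1%, against 26.4% of all genes) and 0 higher. Their median log2 change was -0.75. CYP71Z7, a cytochrome P450 of that pathway, had 162, 141 and 283 at 2 h against 541, 459 and 1592 in the control (log2 change -1.98, SE 0.43), and CPS2, a diterpene cyclase, had 41.4, 54.0 and 98.2 at 2 h against 118, 89.5 and 543 in the control (log2 change -1.57, SE 0.55, adjusted p = 0.0346). Control replicate 3 was the highest array in both. Without it 5 members were lower, the median was -0.48 and CPS2 did not pass (adjusted p = 0.316), and 5 and 4 members were lower after median centring and quantile normalization. The call of CPS2 was also lost after those scalings, with only the groups compared in the fit, and without 2 h replicate 1 or 2. Of 12 chitinases 5 were lower (41.7%, against 26.4% of all genes) and 0 higher, with 1 lower after either of those scalings. GH3.2, which joins auxin to amino acids, fell by 1.37 (SE 0.13), in a list of 58 auxin genes with 6 higher and 14 lower (24%, near the 26.4% of all genes), a balance that was 12 higher and 5 lower after median centring and 11 and 8 after quantile normalization.

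**Figure D3:**
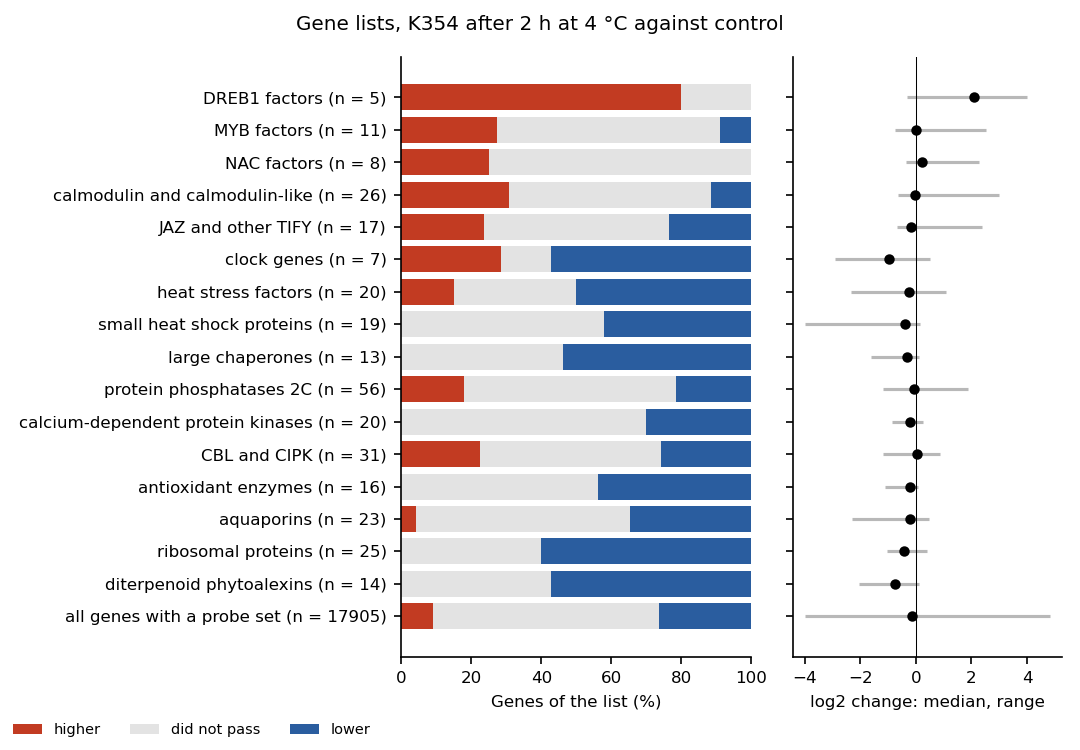
Left, share of the genes of each list (%) that were higher (red), did not pass (grey) or were lower (blue) in K354 at 2 h of cold against control at an adjusted p of 0.05 from limma; right, median (point) and range (line) of their log2 changes. The DREB1 factors have 4 of 5 higher, and the small heat shock proteins have 8 of 19 lower and 0 higher (6 lower and 2 higher after median centring). All 17905 genes (9.07% higher, 26.4% lower) are the bottom row.

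The same 2 h in the recurrent parent C418, measured on arrays that K354 does not share, served to ask which changes differed between the lines. In C418 187 probe sets (0.327%) were induced and 43 (0.0751%) repressed. The 34 probe sets induced in both lines made up 82.9% of the 41 of K354 and 18.2% of the 187 of C418, and the 18 repressed in both made up 40.0% of the 45 of K354 and 41.9% of the 43 of C418. By the interaction, the difference between the log2 changes of the lines, 219 probe sets (0.382%) had a greater and 709 (1.24%) a lower log2 change in K354. The greater ones numbered 126 without the C418 2 h replicate 2, and the lower ones 462 without the C418 2 h replicate 3. Of the 41 induced probe sets of K354 8 had a lower and 1 a greater change than in C418, and of the 45 repressed 11 had a lower change and 0 a greater one. The 187 probe sets of C418 had a median log2 change of 1.46 in K354 and 3.01 in C418. K354 passed the test as higher in 146 of the 187, and the interaction was lower in 133 and greater in 0. Each list was chosen by its change in 1 line, so these counts are a description.

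Within the DREB1 group the lines differed for DREB1G and DREB1E, and no difference passed for DREB1B and DREB1A. DREB1G had 510, 856 and 1273 in K354 at 2 h, against 1399, 1968 and 2552 in C418 at 2 h. Its controls read 266, 380 and 452 in K354 against 75.2, 92.5 and 76.6 in C418, and the interaction was -3.36 (SE 0.38, adjusted p = 4.14e-06 from limma), so K354 lay above C418 in the control (difference 2.14, adjusted p = 4.85e-07) and below it at 2 h (-1.22, adjusted p = 0.00132). DREB1E had an interaction of -2.94 (SE 0.45, adjusted p = 0.000195), with a log2 change of 2.09 in K354 against 5.03 in C418, and LOC_Os06g03670 one of -2.48 (SE 0.41). DREB1B and DREB1A had interactions of -0.71 (SE 0.29, adjusted p = 0.384) and -0.85 (SE 0.26, adjusted p = 0.114), which did not pass. The AP2 factors LOC_Os08g36920 and LOC_Os09g28440 rose less in K354 than in C418, with interactions of -3.02 (SE 0.47) and -1.68 (SE 0.33). ABA8OX1 had a log2 change of 3.11 in K354 and 5.10 in C418, an interaction of -1.99 (SE 0.23, adjusted p = 4.81e-06), with controls of 511, 694 and 959 in K354 against 200, 303 and 297 in C418.

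The largest differences among the named genes were of genes that rose in C418 and were not called in K354. BC1L9, a COBRA-like protein of the cell wall, had 144, 137 and 134 in K354 at 2 h against 163, 176 and 302 in its control, while C418 had 316, 701 and 1016 at 2 h against 39.4, 42.4 and 39.0 in its control. The interaction was -4.49 (SE 0.46, adjusted p = 1.08e-06 from limma), and a second probe set gave -2.78. LOC_Os01g72370, a helix-loop-helix factor, LOC_Os10g39140, a flavonol synthase or flavanone hydroxylase, LOC_Os08g37660, a plastocyanin-like protein, and LOC_Os08g34580, a trehalose phosphate synthase, followed with interactions of -4.36, -4.21, -3.74 and -3.60. Their log2 changes lay between -0.85 and -0.35 in K354, none past the adjusted p, and between 3.23 and 3.51 in C418. LOC_Os01g72370 and LOC_Os10g39140 passed as lower in K354 with only the groups compared in the fit (adjusted p = 0.0254 and 0.0188 from limma), and LOC_Os08g37660 without control replicate 1 (adjusted p = 0.0409). WRKY24 had 757, 644 and 946 in K354 at 2 h against 593, 656 and 678 in its control, and 1847, 3017 and 3699 in C418 at 2 h against 295, 288 and 287 in its control, an interaction of -2.97 (SE 0.28). TPP1, a trehalose phosphate phosphatase, had a log2 change of 1.62 in K354 and 4.45 in C418 (interaction -2.84, SE 0.37, adjusted p = 3.2e-05).

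Fewer genes had a greater log2 change in K354. LSD1, a zinc finger protein known for holding back cell death, had 60.4, 48.1 and 54.1 in K354 at 2 h against 61.0, 85.8 and 54.2 in its control, and 10.3, 6.84 and 6.28 in C418 at 2 h against 84.8, 61.7 and 57.9 in its control. The interaction was 2.85 (SE 0.36, adjusted p = 1.63e-05), and all 3 C418 arrays at 2 h lay below the 25th percentile of their array, so that the fall in C418 was at least 2.56-fold and the interaction is not exact. Its 3 other, brighter probe sets had interactions of 0.55 to 0.61, none of which passed. LOC_Os05g31140, a glycosyl hydrolase of family 17, had log2 changes of 0.10 in K354 and -2.49 in C418 (interaction 2.59, SE 0.31), and its 2 other, brighter probe sets had interactions of 0.18 and 0.38 that did not pass. LOC_Os02g35080 rose more in K354 than in C418 (interaction 1.11, SE 0.28, adjusted p = 0.0355). On the other side, LOC_Os09g17344, an expressed protein named after its values were seen, averaged 291 ± 55.3 in K354 at 2 h against 3582 ± 433 in its control (SD, n = 3 each), while all 6 C418 arrays read 19.4 to 25.7. LOC_Os01g07780, described as embryo-specific, had 226, 123 and 108 at 2 h against 1232, 1458 and 1904 in the control of K354, and LOC_Os02g11110, a flavonol glucosyltransferase, 46.3, 34.5 and 27.2 at 2 h against 374, 411 and 365. In C418 these probe sets of all 3 genes lay below the 25th percentile in all 6 arrays, as did 4 of the 11 repressed probe sets with a lower interaction, so a C418 change could not be read from them. Brighter probe sets of LOC_Os02g11110 fell in both lines, with log2 changes of -2.17 and -2.36 in K354 against -1.20 and -0.91 in C418 and interactions of -0.97 (adjusted p = 0.0298 from limma) and -1.44 (adjusted p = 0.0031). A second probe set of LOC_Os09g17344 had -0.77 in K354 and -0.45 in C418 (interaction -0.33, adjusted p = 0.846), so the probe sets of this gene disagree. Whether a gene or the match of its probes differs between the lines was not tested.

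**Figure D4:**
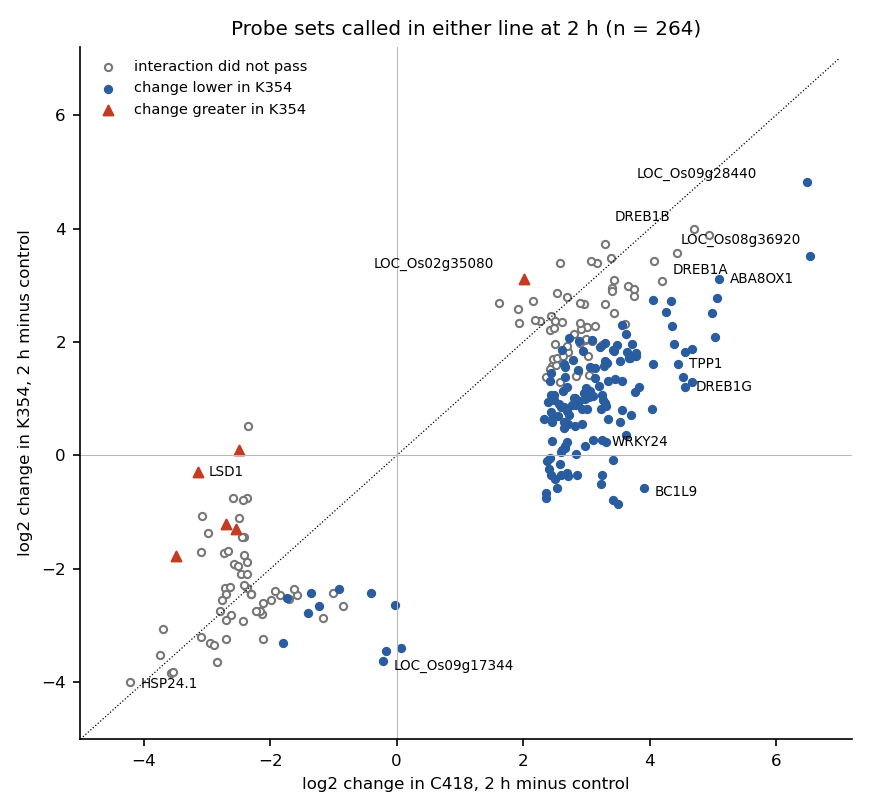
Log2 change at 2 h minus control in K354 (y axis) against C418 (x axis) for the 264 probe sets called in either line; the dotted line marks equal change. Blue circles (144) have a lower and red triangles (6) a greater change in K354 by the interaction at an adjusted p of 0.05 from limma, and open circles did not pass; DREB1A and DREB1B lie near the line and BC1L9 far below it.

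Most of the rises seen at 2 h were larger at 6 h, and 36 of the 45 repressed probe sets were still called at 6 h. The later K354 groups share their control with the 2 h group, so the values stand side by side and are not independent. That control pools shoots taken at 2 h and at 24 h, and the 6 h and 2 h arrays differ in time of day. Time of day and length of cold cannot be told apart between them. The 41 induced probe sets had a median log2 change of 2.80 at 2 h, 4.09 at 6 h, 4.34 at 12 h, 4.47 at 24 h and 4.76 at 48 h. Directly against the 2 h arrays, 32 of the 41 were higher and 2 lower at 6 h at an adjusted p of 0.05, beside 15.5% of all probe sets that were higher and 4.58% that were lower, though the 41 were chosen with the same 2 h arrays. The 45 repressed probe sets had median log2 changes of -2.74 at 2 h, -2.76 at 6 h, -2.64 at 12 h, -2.60 at 24 h and -2.29 at 48 h, where 6 had a log2 change above 0. At over 5-fold 35 probe sets (0.0611%) were higher and 0 (0%) lower at 6 h than at 2 h, and 2622 passed as lower without a limit on the fold. The 0 became 16 without the K354 6 h replicate 2, whose root markers summed to 9824. Of the 35, 16 had already passed as higher at 2 h and 4 were induced there.

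Of DREB1G, DREB1B and DREB1A, only DREB1G passed as higher at 6 h than at 2 h. LOC_Os01g73770, described as DREB1F, was higher at 6 h too, as given below. The 6 h values of DREB1E and LOC_Os06g03670 are not given here. DREB1B, at a log2 change of 3.99 at 2 h, had 4.40, 4.50, 4.42 and 4.33 at 6, 12, 24 and 48 h, and its difference between 6 h and 2 h was 0.42 (adjusted p = 0.16). For DREB1A that difference was 0.45 (adjusted p = 0.0847). DREB1G was still low at 2 h and had 2.88, 3.41, 3.04 and 3.62 at the later times, a rise of 1.68 between 2 h and 6 h (adjusted p = 8.92e-05 from limma). LOC_Os09g28440 went on to 6.91, 6.97, 7.30 and 7.71, and LOC_Os03g22270 to 5.26, 5.73, 6.33 and 6.74.

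Genes that came after 2 h were led by ACA7, a calcium pump, with 92.8, 145 and 127 at 2 h, against 43.0, 43.7 and 49.8 in the control. Its log2 change was 1.4 at 2 h (SE 0.29) and 4.65 at 6 h, a difference of 3.25 (adjusted p = 2.5e-08 from limma). TPP1 followed with a log2 change of 1.62 at 2 h and 4.48 at 6 h, a difference of 2.86. LOC_Os01g73770, described as the DREB1F factor, LOC_Os08g36910, an alpha-amylase, and LOC_Os07g33910, a translocator of sugar phosphates, were measured by probe sets below the 25th percentile in all 2 h and control arrays. Set against that percentile, they were at least 5.08-fold, 1.34-fold and 3.14-fold higher at 6 h than at 2 h (adjusted p = 4.18e-05, 2.59e-05 and 6.34e-06 from limma). A brighter probe set of LOC_Os07g33910 had a log2 change of -0.22 at 2 h against the control (adjusted p = 0.568). PCL1, one of the clock genes, had 0.52 at 2 h and 2.48, 3.85, 5.70 and 6.99 at the later times, and the part of the time of day in this course was not tested. The genes with the largest decline after 2 h were IRT2, an iron transporter (difference -2.31, adjusted p = 0.0101), HOX24, a homeobox factor (-1.70, adjusted p = 0.0493), LOC_Os03g55530 (-1.48), LOC_Os01g09700, an aminotransferase (-1.4, adjusted p = 0.01), and LOC_Os07g09620 (-1.28). Of these LOC_Os01g09700 had risen over 5-fold at 2 h, with 239, 174 and 212 at 2 h against 22, 40.8 and 33.9 in the control (log2 change 2.73, SE 0.38), and its log2 change against the control was 1.33 at 6 h and -0.08 at 12 h. IRT2 had 343, 131 and 84.7 at 2 h against 34, 36 and 94.6 in the control, the order of arrays seen in the root markers, and its call at 2 h (adjusted p = 0.0462) was lost without 4 of the 6 arrays in turn. Among the falls, HSP24.1 had -3.94 at 6 h and -2.54 at 48 h, GI had -2.80 at 6 h and -0.44 at 48 h, and LOC_Os03g18870, the DnaJ protein, stood above the control at 48 h with 2.60.

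**Figure D5:**
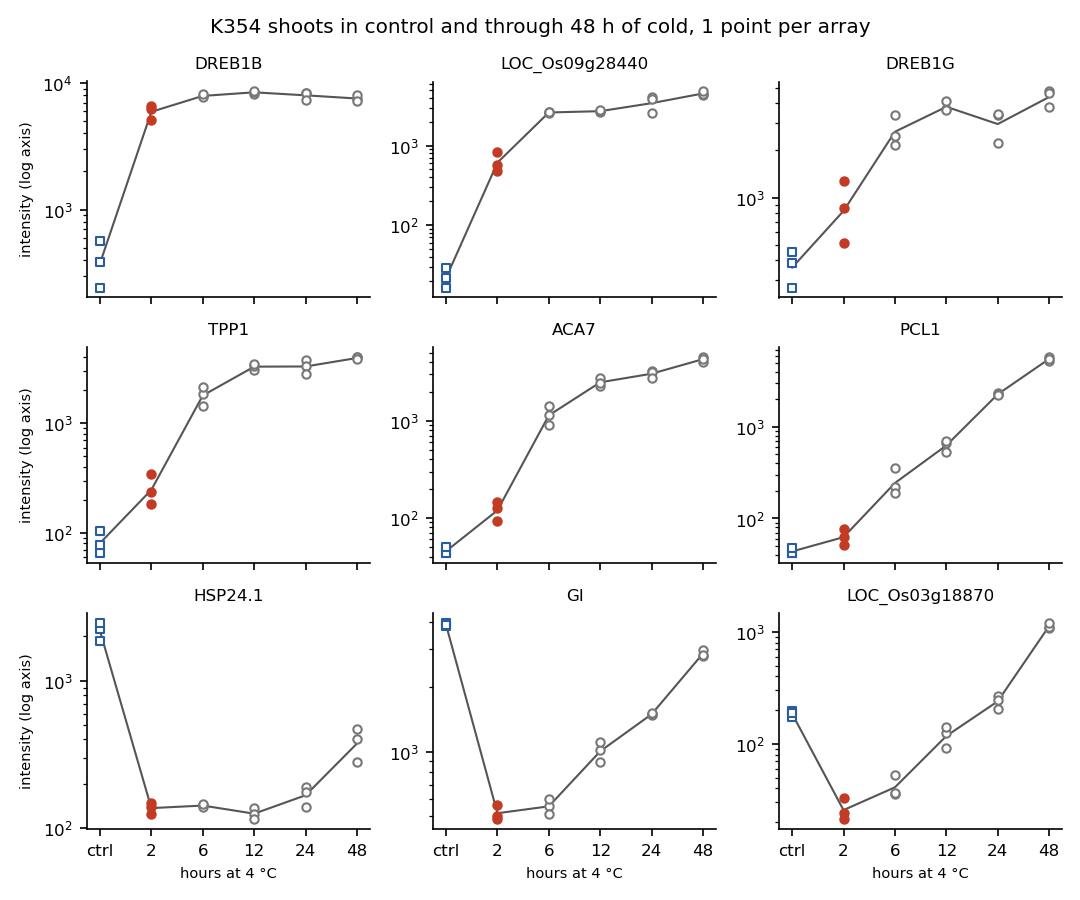
Intensity per array (log axes, arbitrary units) of 9 genes in the K354 control and after 2, 6, 12, 24 and 48 h at 4 °C; squares are control arrays, filled red circles the 2 h arrays, open circles later times, and the line joins group means of log values. DREB1B was near its later level at 2 h, TPP1, ACA7 and PCL1 rose mainly after 2 h, HSP24.1 stayed low, and GI and LOC_Os03g18870 came back. Groups also differ in time of day, and the control pools shoots from 2 times.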

How the data were processed

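Shoot RNA of 36 samples, 3 per group, was hybridized to 1-colour Affymetrix rice arrays. The deposited values are intensities on a linear scale, normalized by the authors, whose methods name GCOS and the invariant set of dChip. MAS5 appears in the sample records, and the method that set the final scale is not given in the sources used here. The number of arrays limits the precision. Of 57381 probe sets, 123 array controls were set apart. Log2 intensities of 12 groups were fitted in 1 model (limma 3.58.1, lmFit and eBayes, R 4.3.3), where the study used SAM. Calls needed an adjusted p under 0.05 and over 5-fold (difference of mean logs), and neither "higher" nor "lower" nor the interaction needed a fold. Genes came from a probe table (22436 probe sets with 1 gene, 95 with several, 34727 with none named) and RefSeq ASM3414082v1 symbols. Loci and product descriptions came from the study's supplement. Lists were matched by symbol at each gene's brightest probe set.

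Named genes are the 12 described rises and 12 falls of largest size, up to 6 interactions and 5 changes after 2 h in each direction with a described product, and members of lists (all of up to 8, otherwise 4 past the threshold and the brightest other). Members and lists were chosen with earlier results of these data known. Tested on simulated data for K354 2 h against control over 57258 probe sets, the 5-fold rule called 48 of 50 changed 6-fold, 50 of 50 changed 10-fold and 0 of 57058 not changed. Without a limit on the fold, 40 of 50 changed 2-fold and 11 of 57058 not changed passed. The simulated noise was normal and independent, with no overall shift and no root marker difference between arrays. These counts are therefore no rate of false calls for the real arrays. Alternatives were 3 scalings, a floor, a filter on dim probe sets, other tests and folds, the groups compared alone, a replicate block and leaving out each array. Tables and figures used Python 3.11.15, pandas 2.3.3, numpy 2.4.6 and matplotlib 3.10.9.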

Additional observations from a re-analysis of the deposited data

Results flagged for a closer look

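For 32 named genes the log2 change after 2 h differed between K354 and C418 by a test of the difference itself (limma interaction, adjusted p under 0.05). Of these 29 had a lower log2 change in K354 than in C418. Among genes that rose in C418 the differences, K354 minus C418, were -4.49 for BC1L9, -4.36 for LOC_Os01g72370, -4.21 for LOC_Os10g39140, -3.74 for LOC_Os08g37660 and -3.60 for LOC_Os08g34580. Transcription factors had -3.36 (DREB1G), -3.02 (LOC_Os08g36920), -2.97 (WRKY24), -2.94 (DREB1E), -2.48 (LOC_Os06g03670), -1.68 (LOC_Os09g28440), -1.29 (MYB4) and -0.61 (WRKY71). The sugar and hormone genes TPP1, ABA8OX1 and JAZ12 had -2.84, -1.99 and -1.39, and the alpha-amylase LOC_Os08g36910, dim in K354 in both groups, had a fitted value of -2.80. The calcium sensors and kinases CML16, CPK13, CML18, CML27 and CPK1 had -1.03, -0.96, -0.79, -0.67 and -0.63. SAP17, Dhn1, ISAP1 and PP2C32 had -2.28, -1.04, -0.90 and -0.74.

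Of those 29, LOC_Os01g07780, LOC_Os09g17344 and LOC_Os02g11110 fell in K354 and were dim in all C418 arrays, where no change could be read, so that their fitted differences of -3.45, -3.42 and -3.27 are not measured differences between the lines. Other probe sets gave -0.97 and -1.44 for LOC_Os02g11110, which passed, and -0.33 for LOC_Os09g17344, which did not (adjusted p = 0.846, limma). A greater log2 change in K354 was found for LSD1 (2.85), LOC_Os05g31140 (2.59) and LOC_Os02g35080 (1.11), each of which has brighter probe sets whose difference did not pass.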

How the results depend on the processing

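Of the 105 named genes, 1319 of 1358 values under alternatives kept their direction and side of the threshold, 31 lost the call, 8 gained it and 0 reversed. The limit of 5-fold set the counts: at 2-fold 426 were induced and 945 repressed, and 614 were higher and 65 lower at 6 h than at 2 h. The excess of lower over higher probe sets depended on the scaling. It gave 6883 higher and 5983 lower after quantile normalization, 7597 and 5659 after median centring and 2411 higher with the hybridization controls, and the cause was not tested. The median log2 change of all probe sets, -0.12 as deposited, was 0.04 after median centring, -0.01 after quantile normalization and -0.17 with the hybridization controls. An ordinary t statistic for each probe set, unadjusted, gave 6377 higher and 18013 lower. An unadjusted p gave 2533 greater and 2706 lower interactions. The greater ones numbered 374 with a floor and 668 with only the groups compared. For 6 h against 2 h, the 3 scalings and the unadjusted p gave 1 lower probe set instead of 0.

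Leaving out 1 array gave 36 to 57 induced, 45 to 53 repressed, 2823 to 3322 higher and 8166 to 10669 lower probe sets. It gave 126 to 221 greater interactions (126 without C418 2 h replicate 2, 136 and 138 without C418 control replicates 3 and 1, 137 without K354 2 h replicate 1 or 2, 143 without K354 control replicate 2) and 462 to 856 lower ones (462 without C418 2 h replicate 3), and 27 to 44 higher and 0 to 16 lower at 6 h (1 and 3 without K354 2 h replicates 2 and 3, 16 without K354 6 h replicate 2). With the replicate number as a block, 41 were induced, 45 repressed, 3802 higher and 11275 lower, and the call of IRT2 was lost (adjusted p = 0.0506, limma). The deviations of same-numbered 2 h and control arrays from their group means correlated at -0.11, -0.10 and -0.17, and 0 of 3 arrays matched their own number best. Within the 41 induced probe sets, though, replicates 1, 2 and 3 were the lowest of their group in 33, 6 and 2, at 2 h and in the control alike. Whether same-numbered arrays share more than a number was not tested. List medians moved in 162 of 539 cases. With 3 arrays a group, the number of arrays limits the precision, and dim probe sets limit the folds.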
